A study of Mus musculus with 16 samples.

Results

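Chromatin methylation and remodelling genes of the mouse cortex were followed through RNA-seq and ribosome profiling. Members were taken by gene symbol: every gene whose symbol starts with Kmt, Kdm, Nsd, Chd or Arid followed by a digit, or with Setd or Smarc. The rule found 68 of the 20436 genes listed in the deposited tables, made up of 18 Kdm, 13 Smarc, 11 Setd, 10 Arid and 10 Chd genes, 5 Kmt genes and Nsd1. The tables use older symbols, so that Setd8 (now Kmt5a) is a member, while Whsc1 (Nsd2), Whsc1l1 (Nsd3), Suv420h1 (Kmt5b) and Suv420h2 (Kmt5c) fall outside the rule by name. All 68 were found in the RefSeq gene table of GRCm38.p6. Cortex was taken from FVB.129P2-/Pde6b+ Tyr c-ch //AntJ mice at postnatal day 28 to 35. There were 4 genotypes: wild type (WT), Fmr1 knockout (Fmr1-KO), Cpeb1 knockout (Cpeb1-KO) and the knockout of both genes (double-KO). Fmr1 encodes FMRP, the RNA-binding protein missing in fragile X syndrome, and Cpeb1 encodes an RNA-binding protein that controls poly(A) tails. Each genotype had 2 RNA-seq and 2 ribosome footprint libraries, 16 in all, made from cytoplasmic lysate of whole cortex, so that fewer cells of a type and less RNA per cell cannot be told apart. The labels number the libraries 1 and 2 and give neither the sex of the animals nor whether tissue was pooled, so p-values measure only the spread between these libraries.

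Histone tails carry methyl groups that are written by SET domain enzymes and removed by demethylases of the KDM families. The COMPASS family of complexes, built around Kmt2a to Kmt2d, Setd1a and Setd1b, methylates histone H3 at lysine 4 (H3K4), a mark of active promoters and enhancers. Below, the term H3K4 methyltransferase is kept for these 6 COMPASS enzymes, and Setd7 is grouped with the other SET domain or KMT proteins. Chromatin remodellers use ATP to slide or evict nucleosomes. Among them are the BAF and PBAF complexes, with Smarca2 or Smarca4 as the motor and Arid1a, Arid1b or Arid2 as defining subunits, the CHD proteins, and the ISWI motors Smarca1 and Smarca5. Mutations in many of these genes, among them KMT2D, KMT2A, SETD1A, SETD1B, ARID1B, CHD8, CHD7 and KDM6A, cause human neurodevelopmental disorders, and long mRNAs of this kind are among the known binding targets of FMRP in brain.

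Promoter sequence is shown for 4 members whose RNA passed the test described below, 3 that were lower in the single knockouts (Setd1a, Kmt2d and Smarcd1) and the one that was higher (Smarca1). Each line gives the 250 bases before an annotated RefSeq start in GRCm38.p6, 5′ to 3′ on the gene's strand, with matches to the GC box GGGCGG or its complement CCGCCC in capitals. The windows are chr7:127777139-127777388 (plus strand) for Setd1a, chr15:98871206-98871455 (minus strand) for Kmt2d, chr15:99702037-99702286 (plus strand) for Smarcd1 and chrX:47892614-47892863 (minus strand) for Smarca1. The start used for Kmt2d lies inside the outer bounds of its gene.
Setd1a: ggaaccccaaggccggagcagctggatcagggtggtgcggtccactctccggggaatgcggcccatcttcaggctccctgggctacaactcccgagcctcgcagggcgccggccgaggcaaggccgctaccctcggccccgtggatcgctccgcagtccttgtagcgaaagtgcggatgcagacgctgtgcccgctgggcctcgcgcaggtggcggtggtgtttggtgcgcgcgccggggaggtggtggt
Kmt2d: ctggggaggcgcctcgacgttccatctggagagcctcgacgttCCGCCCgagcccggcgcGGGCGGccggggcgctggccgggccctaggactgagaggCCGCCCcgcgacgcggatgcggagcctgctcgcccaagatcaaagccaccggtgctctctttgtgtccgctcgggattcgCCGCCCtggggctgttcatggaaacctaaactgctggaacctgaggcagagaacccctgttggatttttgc
Smarcd1: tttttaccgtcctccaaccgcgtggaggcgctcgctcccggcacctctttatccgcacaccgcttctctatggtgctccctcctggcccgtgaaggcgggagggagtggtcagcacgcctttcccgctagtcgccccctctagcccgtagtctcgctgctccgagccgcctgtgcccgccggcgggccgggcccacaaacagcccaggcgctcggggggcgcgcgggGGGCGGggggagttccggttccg
Smarca1: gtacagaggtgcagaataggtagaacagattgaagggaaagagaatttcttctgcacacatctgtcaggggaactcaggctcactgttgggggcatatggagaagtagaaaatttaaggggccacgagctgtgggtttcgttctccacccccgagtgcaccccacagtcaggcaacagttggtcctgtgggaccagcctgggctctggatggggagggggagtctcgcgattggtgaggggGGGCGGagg

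Kmt2d held 4 GC boxes in its window, Smarcd1 1, Smarca1 1 and Setd1a 0. CG dinucleotides numbered 25 in Setd1a, 26 in Kmt2d, 29 in Smarcd1 and 6 in Smarca1. RefSeq gave 66 windows for 51 of the members, with a median of 21 CG dinucleotides and a GC content of 63.6%, against 15 and 60% in the 12969 windows of genes tested in RNA and 6 and 52.4% in all 32851 windows. A GC box on either strand was present in 66.7% of member windows, 56.9% of windows of tested genes and 32.7% of all windows. The ETS motif CCGGAAG was present in 13.6% of member windows, 12.3% of windows of tested genes and 6.91% of all windows, and the E-box CACGTG in 3.03%, 8.15% and 6.02%. No member window held the YY1 motif AAGATGGCG, which was present in 1.07% of windows of tested genes and in 0.606% of all windows. Both strands were searched, no motif contains another, and a match is a description of these letters only.

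In WT cortex most members were expressed at ordinary levels for a cortical mRNA. The deposited TPM values, which are scaled per length of the feature, were used to compare genes. The median WT RNA level was 40.8 TPM over the 67 members that passed the filter on low counts and 31.7 TPM over all tested genes, and 39 members were above the latter. Chd3, a motor of the NuRD remodelling and deacetylase complex, had the highest RNA level at 265 and 205 TPM in the 2 WT libraries. It was followed by Setd3, an actin histidine methyltransferase, at 194 ± 5.45 TPM (SD, n = 2), and Smarcd1, a BAF subunit, at 150 ± 2.25 TPM. Smarca2 (142 ± 32.3 TPM), Setd7 (128 ± 5.66), Chd4 (126 ± 20), Chd5 (121 ± 30), the H3K36 methyltransferase Nsd1 (118 ± 6.79) and Smarcc2 (111 ± 11) completed the 9 members above 100 TPM, and neighbours in this order from Smarca2 to Smarcc2 did not differ beyond their spread. The 6 H3K4 methyltransferases of COMPASS lay lower, with Kmt2d at 50 ± 3.15 TPM, Kmt2c at 34.8 ± 0.403, Kmt2a at 30.6 ± 2.66, Setd1a at 20 ± 0.318, Setd1b at 18.2 ± 1.63 and Kmt2b at 17.3 ± 0.481. Kdm1a, the H3K4 demethylase LSD1, was the highest Kdm gene at 98.8 ± 2.65 TPM and Kmt2e the highest Kmt gene at 61.3 ± 3.58. At the low end 10 members were under 10 TPM, among them Setdb2 (5.35 ± 0.898), Chd7 (4.13 ± 0.339), Arid3a (3.72 ± 0.0495) and the demethylase Kdm4d (2.77 ± 0.467). Arid3c, at 0.26 and 0 TPM in WT, was the only member that did not pass the filter, in RNA or in footprints, and it is not tested below.

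Ribosome footprints gave another order. Smarcb1, a core BAF subunit, led at 179 ± 4.07 TPM (SD, n = 2) in WT footprints although it ranked 12 by RNA, and Chd3, the first by RNA, ranked 18 with 31.8 and 34 TPM. The WT footprint-to-RNA ratio of TPM had a median of 0.436 over the tested members and 0.653 over all tested genes, and 49 of 67 members (73.1%) lay below the latter. The lowest quartile of all tested genes, under a ratio of 0.39, held 31 members, and the highest, above 1.01, held 2, Kdm4d and Smarcb1. Kmt2a had the lowest ratio of the members, 0.128 and 0.123 in the 2 WT library pairs, followed by Chd3 (0.12 and 0.166), Kmt2d (0.135 and 0.155) and Kmt2c (0.131 and 0.163). By role, the median ratio was 0.185 for the 6 H3K4 methyltransferases, 0.34 for CHD remodellers, 0.368 for other SET domain and KMT proteins, 0.49 for demethylases and 0.616 for BAF and PBAF subunits. It was 0.633 for other ARID proteins and 0.736 for other SNF2-type or SMARC proteins, the last above the median of all tested genes. Coding length moved with this ratio over all tested genes, with medians of 1.02, 0.719, 0.591 and 0.42 from the shortest to the longest quartile, and members are long: their median coding length is 3781 nt against 1437 nt for all tested genes. Kmt2d is the longest at 16764 nt. The part of length in the low ratio of the members was not tested.

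**Figure D1:**
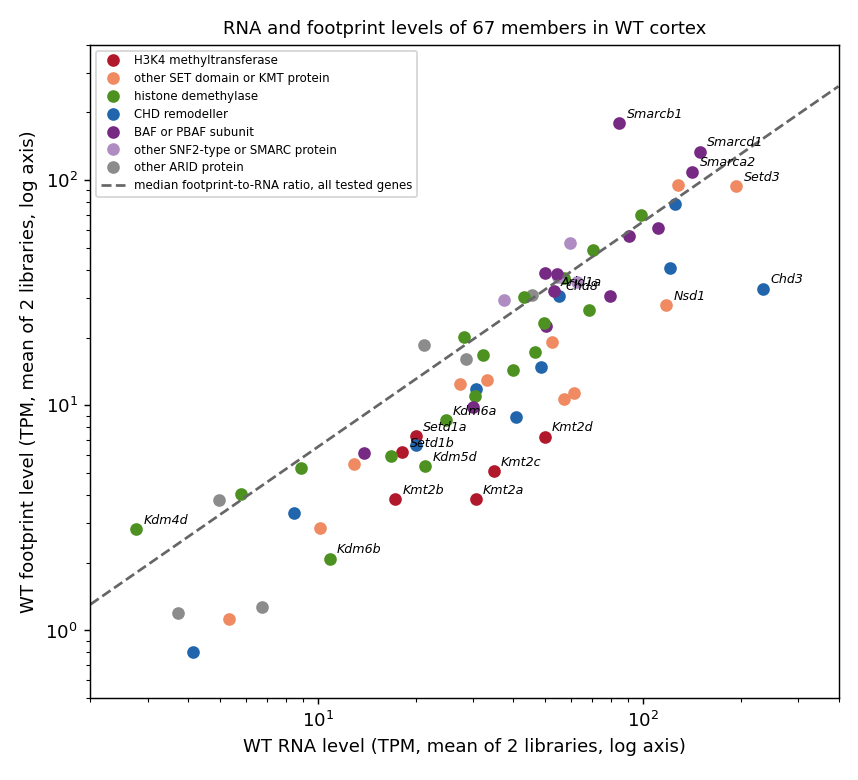
Footprint level against RNA level in WT cortex for the 67 tested members, both in TPM on log axes, each point the mean of 2 libraries and coloured by role. The dashed line marks the median ratio of all tested genes (0.653); 49 members lie below it, with the H3K4 methyltransferases among the farthest and Smarcb1 above it.

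The RNA-seq libraries held 5423919 to 10246479 estimated counts and the footprint libraries 16239479 to 24973462, of which the members took 0.911% to 1.14% and 0.598% to 0.647%. RNA of Fmr1 was 109 and 91.3 CPM (counts scaled to library size) in WT and 25.9, 18.4, 25.2 and 21.5 CPM in the libraries labelled as lacking Fmr1, and RNA of Cpeb1 was 43.9 and 33.6 CPM in WT and 16, 19.7, 18.5 and 16.1 CPM in those labelled as lacking Cpeb1. Markers of neurons summed to 4963 to 5550 CPM of RNA, of astrocytes to 1287 to 1677 and of oligodendrocytes to 1354 to 1738, while those of microglia (26.4 to 52.7) and endothelium (12 to 16.9) were low. No marker of these 5 lists was at 0 in any library.

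RNA of several H3K4 methyltransferases fell in the pooled libraries of both single knockouts against those of WT and double-KO cortex. The authors deposited this pooled comparison for RNA, 4 libraries against 4. In it 4 of the 6 enzymes fell: Setd1b, Kmt2d, Kmt2b and Setd1a, while Kmt2a and Kmt2c did not pass the test. Over all members 8 of 67 passed (11.9%), with edgeR's quasi-likelihood test and an adjusted p under 0.05, beside 7.31% of all 13287 genes tested, and 20 had an unadjusted p under 0.05 (29.9%, beside 25.7%). Of the 8 that passed, 7 were lower (10.4%, beside 5.09% of all genes) and 1 was higher (1.49%, beside 2.22%). The difference between these shares was not tested. In the longest length quartile described below 6 of 51 members were lower, beside 9.97% of all genes there. In a fit of the 4 genotypes, which estimates the spread within each, the same contrast called 2 members, Setd1a and Setd1b.

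Coordinates below are gene bounds in GRCm38.p6. Setd1b (chr5:123142040-123168630), a catalytic subunit of the SET1 form of COMPASS, had 69.9 and 79.4 CPM of RNA in WT and 89.9 and 64.9 CPM in double-KO cortex. It had 42.8 and 54.5 CPM in Fmr1-KO cortex and 28.8 and 51.4 CPM in Cpeb1-KO cortex. All 4 single-KO libraries lay below all 4 others, and Setd1b fell by 0.81 ± 0.153 (SE) on the log2 scale (edgeR adjusted p = 0.00997). Setd1a (chr7:127777389-127800122), its close relative and a gene linked to schizophrenia, had 71.7 and 70.2 CPM in WT, 74.5 and 65.5 in double-KO cortex, 44 and 57.6 in Fmr1-KO cortex and 36 and 53.7 in Cpeb1-KO cortex. The groups again did not overlap, and Setd1a fell by 0.58 ± 0.115 (edgeR adjusted p = 0.0114). Kmt2d (chr15:98831669-98874077), which methylates H3K4 at enhancers and is mutated in Kabuki syndrome, had 605 and 553 CPM in WT and 689 and 504 CPM in double-KO cortex. It had 315 and 414 CPM in Fmr1-KO cortex and 259 and 457 CPM in Cpeb1-KO cortex, a fall of 0.73 ± 0.142 (edgeR adjusted p = 0.0111) with no overlap. For Kmt2b (chr7:30568855-30589056), a paralog of Kmt2a that acts at promoters, the values were 99 and 95.3 CPM in WT, 118 and 94 in double-KO cortex, 56.2 and 80.7 in Fmr1-KO cortex and 46.9 and 79.9 in Cpeb1-KO cortex. Kmt2b fell by 0.66 ± 0.139 (edgeR adjusted p = 0.0147), also without overlap of the groups. On the linear scale the single knockouts stood at 0.584 times the mean of the other libraries for Setd1b, 0.615 for Kmt2d, 0.649 for Kmt2b and 0.679 for Setd1a. Of the other enzymes, Kmt2a had a log2 change of -0.33 ± 0.128 (edgeR adjusted p = 0.119) and Kmt2c of -0.13 ± 0.112 (adjusted p = 0.488), and their groups overlapped. The sign of Kmt2c turned to 0.04 ± 0.0628 when gene length was corrected for, while the other 5 enzymes stayed below 0.

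**Figure D2:**
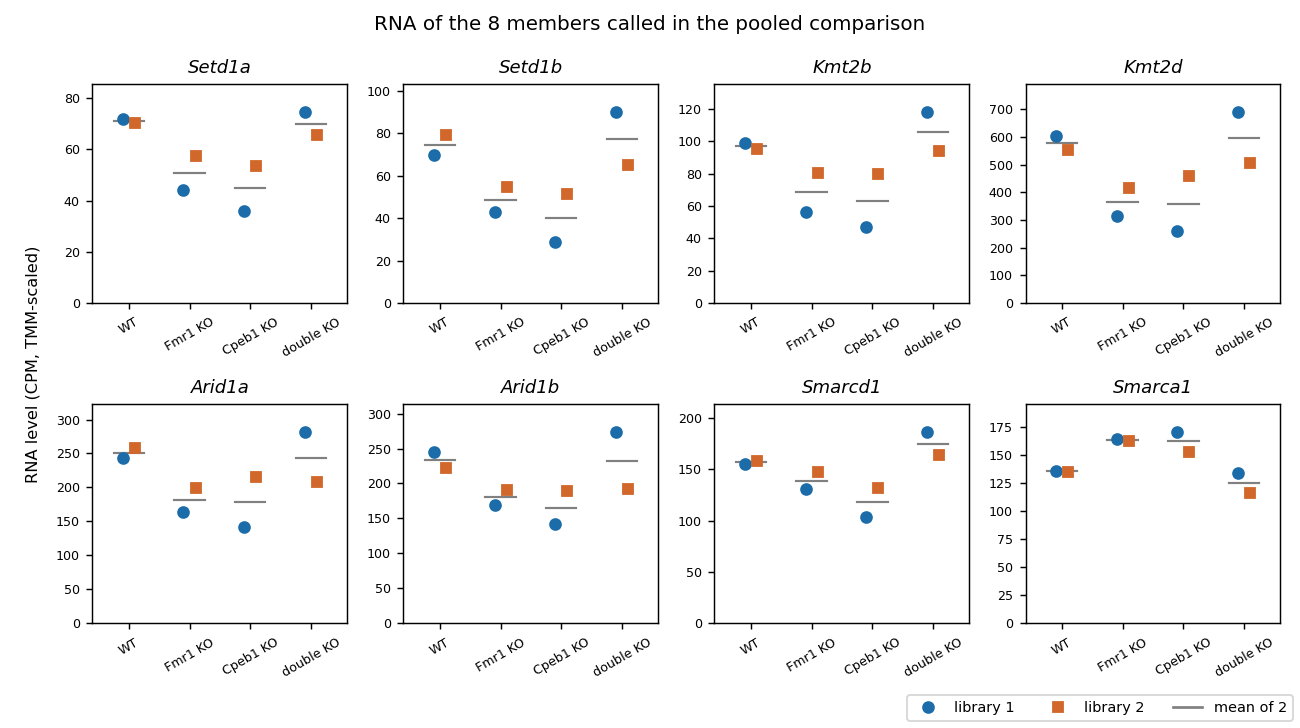
RNA level (CPM, scaled with TMM factors, axes from 0) of the 8 members that passed the test in the pooled comparison, by genotype, with library 1 as circles, library 2 as squares and the mean as a line. In the 4 H3K4 methyltransferases of the upper row every single-KO library lies below every WT and double-KO library, and circles are farther apart between genotypes than squares.

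In the same fit 3 of 12 BAF and PBAF subunits fell, and none of them passed without the library number in the model or in the fit of the 4 genotypes. Arid1a (chr4:133679008-133756769), the defining subunit that is often mutated in cancer, had 244 and 258 CPM of RNA in WT, 281 and 208 in double-KO cortex, 164 and 199 in Fmr1-KO cortex and 141 and 215 in Cpeb1-KO cortex. Library 2 of Cpeb1-KO cortex was above library 2 of double-KO cortex, so the groups overlapped, and the fitted fall was 0.48 ± 0.117 (edgeR adjusted p = 0.0264). Its paralog Arid1b (chr17:4994297-5347656), mutated in Coffin-Siris syndrome, had 245 and 222 CPM in WT, 273 and 192 in double-KO cortex, 169 and 191 in Fmr1-KO cortex and 142 and 189 in Cpeb1-KO cortex. Arid1b fell by 0.43 ± 0.113 (edgeR adjusted p = 0.0333), with the highest single-KO library just under the lowest of the others. Smarcd1 (chr15:99702287-99713995), an accessory subunit, had 155 and 158 CPM in WT, 186 and 164 in double-KO cortex, 131 and 147 in Fmr1-KO cortex and 104 and 132 in Cpeb1-KO cortex, and fell by 0.37 ± 0.0989 (edgeR adjusted p = 0.0358) without overlap. The other 9 subunits tested did not pass. Smarcc2 had a log2 change of -0.23 ± 0.0893 (edgeR adjusted p = 0.116), and the motors Smarca4 (-0.21 ± 0.103) and Smarca2 (0.04 ± 0.0916) had adjusted p-values of 0.216 and 0.813. The median over the 12 BAF and PBAF subunits was -0.15, and -0.09 with length correction.

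The single member that was higher was Smarca1 (chrX:47809370-47892613), an ISWI motor. Its RNA was 136 and 135 CPM in WT, 134 and 116 in double-KO cortex, 164 and 162 in Fmr1-KO cortex and 170 and 153 in Cpeb1-KO cortex. Smarca1 rose by 0.32 ± 0.0742 on the log2 scale (edgeR adjusted p = 0.0221), or 1.25 times on the linear scale, and all single-KO libraries were above the others. It passed in 8 of 15 alternative fits, and not without the library number in the model (adjusted p = 0.0504) or in the fit of the 4 genotypes (adjusted p = 0.0573). The other ISWI motor Smarca5 and the nucleosome remodeller Smarcad1 each had a change of 0.26, with SEs of 0.088 and 0.0851 and edgeR adjusted p-values of 0.0866 and 0.0751, so neither passed.

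No demethylase (18 tested), CHD remodeller (10), other SET domain or KMT protein (11) or other ARID protein (6) passed the test in the pooled RNA comparison. At an unadjusted p under 0.05 edgeR gave 3 demethylases, 1 CHD remodeller, 3 other SET domain proteins and 1 other ARID protein, and DESeq2 called none of them. Their median changes were -0.041, -0.055, -0.052 and 0.013, and 0.07, 0.07, -0.01 and 0.07 with length correction, so those of the demethylases and CHD remodellers changed sign with it. Kdm3b, an H3K9 demethylase, had -0.26 ± 0.103 (edgeR adjusted p = 0.126), Chd5, a neuronal NuRD motor, -0.23 ± 0.0901 (adjusted p = 0.128), and Setd5, a member mutated in intellectual disability, -0.28 ± 0.105 (adjusted p = 0.106). Setd3 lay on the other side with 0.22 ± 0.078 (adjusted p = 0.1). Setd2, the H3K36 methyltransferase of active genes, had 265 ± 25.3 CPM (SD, n = 4) in the single knockouts and 268 ± 42.5 CPM in the other libraries. Chd8, a CHD protein mutated in autism, had RNA means of 294 CPM in WT, 281 in each single knockout and 290 in double-KO cortex.

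**Figure D3:**
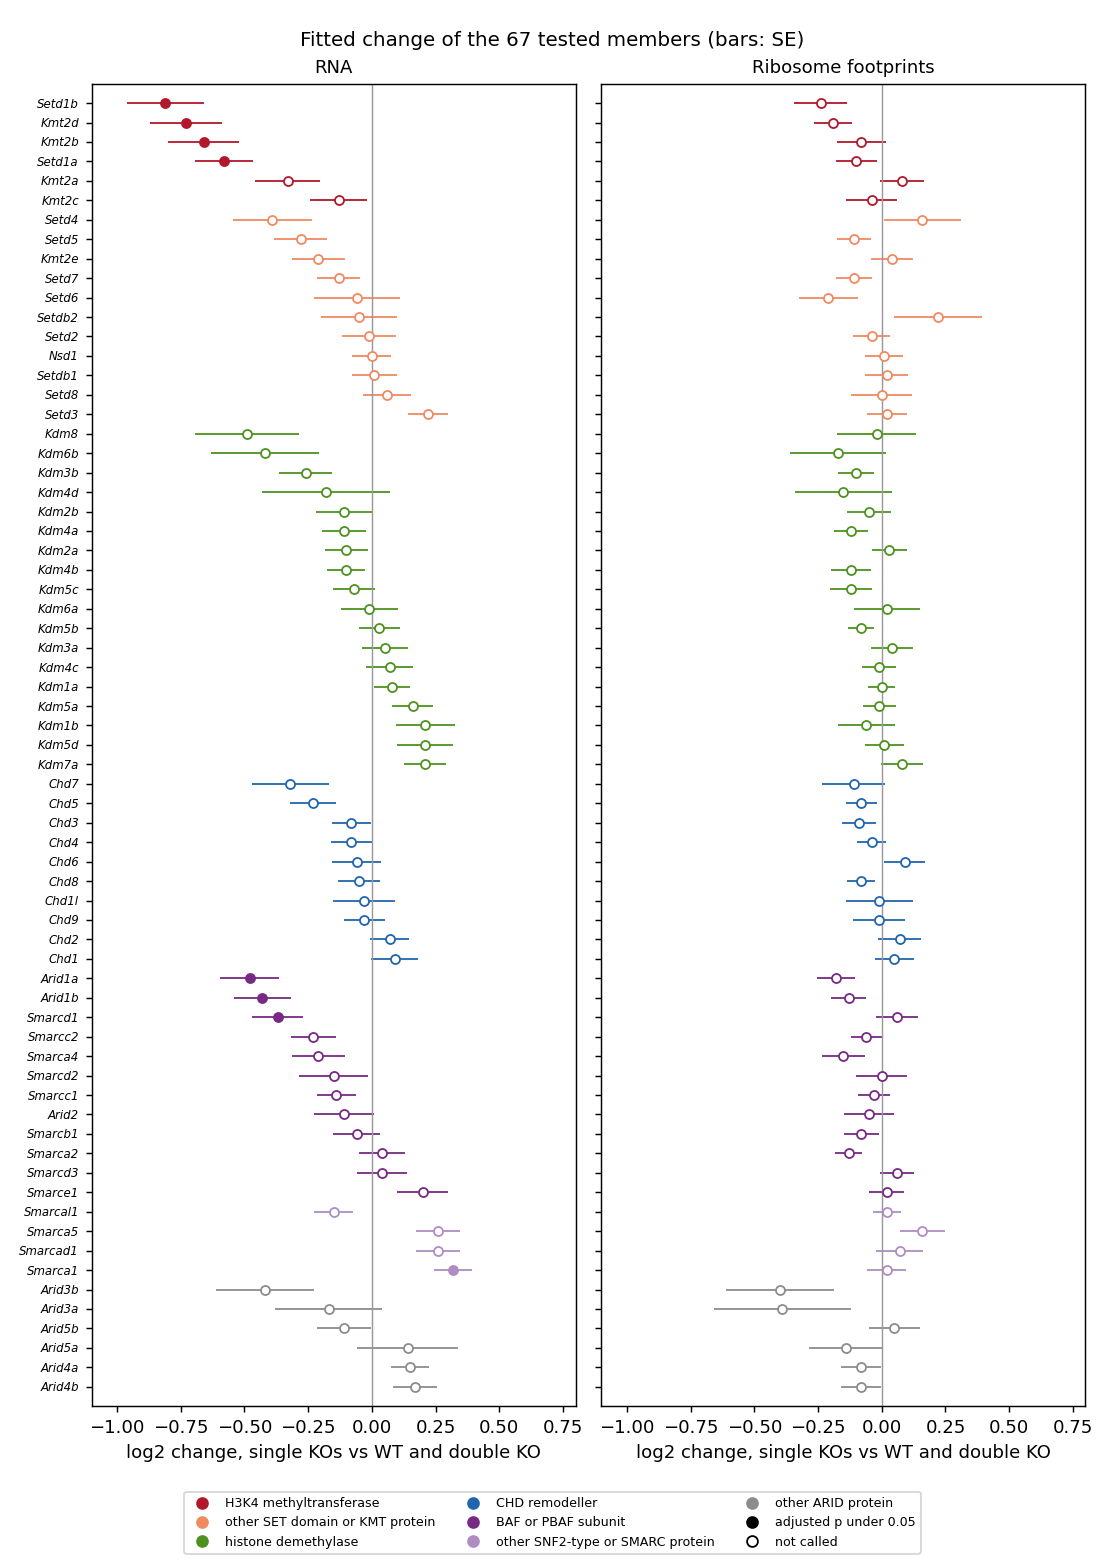
Fitted log2 change with SE (bars) of the 67 tested members, single knockouts (Fmr1 and Cpeb1) against WT with double knockout, in RNA (left) and footprints (right), in the order of role and RNA change. Filled points passed the test. In RNA the 8 filled points are 4 H3K4 methyltransferases, 3 BAF subunits and Smarca1, and in footprints there is none.

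The pooled RNA changes were larger among the libraries numbered 1. Between those libraries Setd1b changed by -1.17, Kmt2d by -1.18, Kmt2b by -1.07 and Setd1a by -0.87 on the log2 scale, and between those numbered 2 by -0.44, -0.28, -0.24 and -0.28. Arid1a (-0.78 and -0.16), Arid1b (-0.74 and -0.12) and Smarcd1 (-0.54 and -0.21) showed the same order, whereas Smarca1 changed by 0.31 and 0.33. Each of the 8 kept its direction in both, but over all 67 members the median was -0.219 among libraries 1 and 0.04 among libraries 2, and 32 members had the same sign in both. Without library 1 of Fmr1-KO cortex 1 member passed (Setd1b), without library 1 of Cpeb1-KO cortex 3, without library 1 of WT 4, without library 1 of double-KO cortex 4 and without library 2 of double-KO cortex 12. The share of all genes that passed in these fits is not given here, so these counts describe the stability of the calls only.

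Change and coding length moved together. The median pooled RNA change of all tested genes was 0.12 in the shortest length quartile (up to 906 nt), 0.042 and -0.0019 in the middle quartiles and -0.061 in the longest (from 2298 nt), which holds 51 of the 67 members. Within that longest quartile 7 of 51 members passed (13.7%), beside 11.4% of all genes there. Of these members 6 were lower, beside 9.97% of all genes in that quartile. Over all members the median change was -0.076, beside 0.026 for all genes, and it was 0.013 when a smooth trend with length was removed from every library. After that correction 14 members passed, the same 7 that were lower and 7 that were higher: Smarca1, Smarca5, Smarcad1, Kdm5a, Kdm5d, Kdm7a and Arid4b. Calls over all genes rose with it too, as counted in the closing section. The shares of all genes by direction are not given here, so these counts describe the stability of the calls only. Kmt2d then fell by 0.56 ± 0.0811 (edgeR adjusted p = 0.00161) and Setd1b by 0.67 ± 0.122 (adjusted p = 0.00425). In the pooled RNA comparison the groups did not overlap in 9 of 67 members (13.4%), beside 12.2% of all genes.

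**Figure D4:**
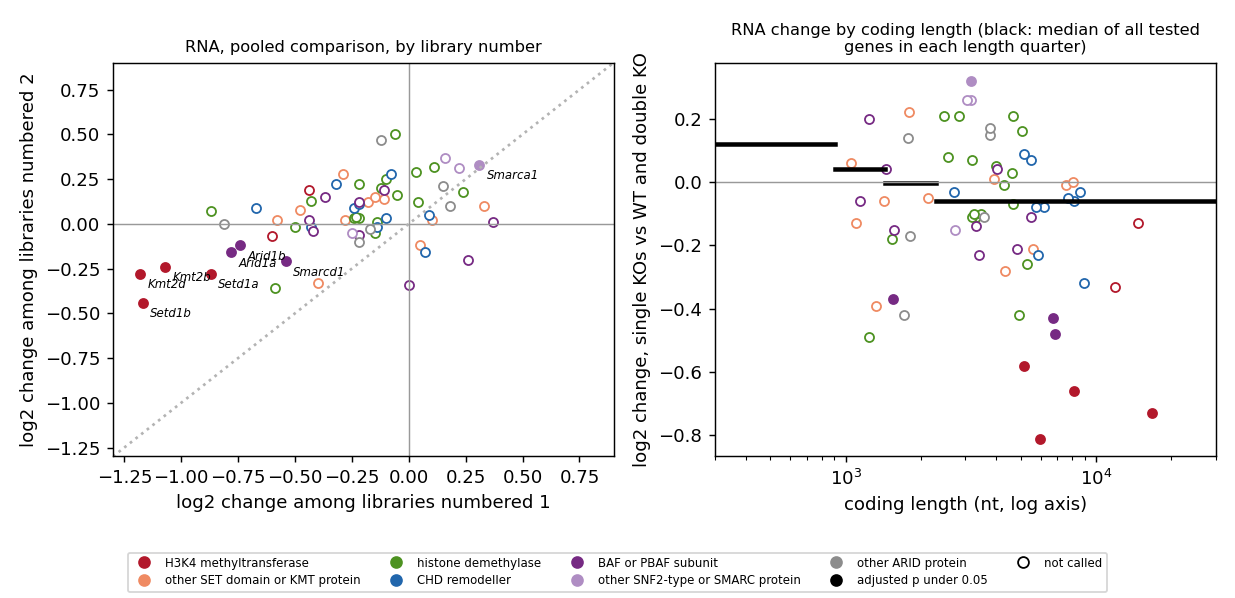
Pooled RNA change of the 67 members. Left: log2 change among the libraries numbered 1 against that among those numbered 2 (dotted line: equal); the 7 genes that fell lie at -0.54 or lower on the horizontal axis and between -0.44 and -0.12 on the vertical. Right: fitted change against coding length (log axis), with the median of all tested genes in each length quartile in black, from 0.12 in the shortest to -0.061 in the longest.

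Each genotype was then set against WT on its own, 2 libraries against 2. No member passed in RNA in Fmr1-KO cortex (0 of 67, beside 0.00753% of all genes), in Cpeb1-KO cortex (0, beside 0%) or in double-KO cortex (0, beside 0.00753%), with edgeR or with DESeq2. At an unadjusted p under 0.05 edgeR gave 6, 9 and 2 members, which is 8.96%, 13.4% and 2.99% beside 8.09%, 11% and 4.23% of all genes. These comparisons share the WT libraries. The fitted change was above 0 in 38.8%, 34.3% and 49.3% of members, beside 54.1%, 53.7% and 49.7% of all genes. All 6 H3K4 methyltransferases had a fitted change below 0 in both single knockouts, with medians of -0.52 and -0.67, and 3 of 6 did in double-KO cortex, with a median of 0.017. These enzymes lie in the longest length quartile, where the medians of all tested genes were -0.065, -0.054 and -0.0079. Their role group was chosen with earlier results of these data known. Setd1b had -0.63 ± 0.229 in Fmr1-KO cortex (edgeR adjusted p = 0.577), -0.93 ± 0.233 in Cpeb1-KO cortex (adjusted p = 0.265) and 0.08 ± 0.224 in double-KO cortex (adjusted p = 0.988). Kmt2d had -0.68 ± 0.231, -0.72 ± 0.233 and 0.05 ± 0.229, and Setd1a had -0.50 ± 0.174, -0.69 ± 0.176 and -0.02 ± 0.172. When the spread was estimated from the libraries of Fmr1-KO cortex and WT alone, 6 members passed as lower there, among 401 calls over all genes, and the same kind of fit for Cpeb1-KO cortex called 1 member among 71 genes. Without library 2 of Cpeb1-KO cortex 6 members passed in it against WT, among 151 genes, and without library 1 or library 2 of double-KO cortex 1 did, among 55 and 58 genes. Outside the enzymes named, the low-level genes Arid5a (0.49 ± 0.276 in Fmr1-KO cortex) and Kdm1b (0.33 ± 0.168 in Cpeb1-KO cortex, a relative of Kdm1a) had the largest changes above 0. RNA of Arid5a was 6.5 and 5.41 CPM in WT, 7.12 and 9.97 without Fmr1, 7.88 and 6.98 without Cpeb1 and 10.2 and 6.52 without both.

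The effect of losing Fmr1 with and without Cpeb1 was compared as an interaction in the fit of the 4 genotypes. It passed for 2 members, Setd1a and Setd1b (2.06% of all genes passed). Loss of Fmr1 gave a log2 change in Setd1b RNA of -0.63 ± 0.229 where Cpeb1 was present and 1.00 ± 0.234 where it was absent, a difference of 1.63 ± 0.328 (edgeR adjusted p = 0.0408). For Setd1a the changes were -0.50 ± 0.174 and 0.67 ± 0.177, a difference of 1.17 ± 0.248 (adjusted p = 0.0422). In neither gene did a change with loss of Fmr1 pass by itself. Where Cpeb1 was absent the edgeR adjusted p was 0.102 for Setd1b and 0.113 for Setd1a. Kmt2d, with a difference of 1.45 ± 0.331, had an adjusted p of 0.0502. This is the pooled contrast again on another scale, with a spread estimated from 4 genotypes, and it uses the same 8 libraries.

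Ribosome footprints gave fewer calls than RNA in the pooled comparison, and more in double-KO cortex against WT. In the pooled comparison no member passed (edgeR 0 of 67, beside 0% of all 13774 genes; 4 at an unadjusted p under 0.05, 5.97% beside 6.95%; DESeq2 0). Setd1b had a footprint log2 change of -0.24 ± 0.103 and Kmt2d of -0.19 ± 0.0752 (edgeR adjusted p = 0.711 for both), where their RNA fell by 0.81 and 0.73. None passed in Fmr1-KO cortex (edgeR 0 of 67, beside 0.0581%; 4 at an unadjusted p under 0.05, 5.97% beside 5.09%; DESeq2 0) or Cpeb1-KO cortex (edgeR 0, beside 0.0799%; 0 at an unadjusted p under 0.05, beside 3.88%; DESeq2 0) against WT. In double-KO cortex against WT 2 passed (2.99%, beside 2.65% of all genes), and against Cpeb1-KO cortex 3 (4.48%, beside 5.6%). These shares lie near those of all genes. At an unadjusted p under 0.05 there were 20 (29.9%, beside 21%) and 19 (28.4%, beside 24.6%).

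Kdm6a (chrX:18160862-18279936) and Kdm6b (chr11:69398508-69420367), the H3K27 demethylases, passed in opposite directions in double-KO cortex against WT. Footprints of Kdm6a, which lies on the X chromosome, were 35.4 and 34.1 CPM in WT, 27 and 30.8 in Fmr1-KO cortex, 29.3 and 32.3 in Cpeb1-KO cortex and 23.5 and 24.4 in double-KO cortex. The WT libraries were the highest and the double-KO libraries the lowest, and Kdm6a fell by 0.54 ± 0.0983 (edgeR adjusted p = 0.0206). Its RNA in double-KO cortex had a change of -0.26 ± 0.158 (adjusted p = 0.966). Footprints of Kdm6b were 8.51 and 10.9 CPM in WT, 10.1 and 12.6 in Fmr1-KO cortex, 8.91 and 14.3 in Cpeb1-KO cortex and 16.6 and 15.2 in double-KO cortex, a rise of 0.74 ± 0.167 against WT (edgeR adjusted p = 0.04). Library 2 of Cpeb1-KO cortex came close to double-KO cortex, and DESeq2 did not call Kdm6b. The change in its RNA against WT was 0.63 between libraries 1 and -0.63 between libraries 2.

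Against Cpeb1-KO cortex, Setd1b was the H3K4 methyltransferase that rose in double-KO cortex. Its footprints were 45.7 and 43.5 CPM there, 29.9 and 34.3 in Cpeb1-KO cortex, 34.9 and 35.2 in WT and 34.1 and 36.6 in Fmr1-KO cortex. The double-KO libraries were above all 6 others, and the rise over Cpeb1-KO cortex was 0.48 ± 0.0948 (edgeR adjusted p = 0.0199), while that over WT was 0.35 ± 0.0944 (adjusted p = 0.068). Arid3a (chr10:79927043-79955018), a transcription factor with an ARID domain, rose by 1.10 ± 0.248 (edgeR adjusted p = 0.0272) at low levels, from 1.56 and 1.94 CPM in Cpeb1-KO cortex to 2.96 and 4.65 CPM, with 2 and 1.98 in WT and 2.35 and 2.89 in Fmr1-KO cortex. DESeq2 did not call Arid3a. Smarca5 (chr8:80699943-80739459) fell by 0.36 ± 0.082 (edgeR adjusted p = 0.029), from 119 and 106 CPM in Cpeb1-KO cortex to 93.3 and 82.3 CPM, below the 109 and 110 of WT and the 114 and 103 of Fmr1-KO cortex. Among the other H3K4 methyltransferases the changes against Cpeb1-KO cortex were 0.25 ± 0.103 for Kmt2b, 0.22 ± 0.0803 for Kmt2d, 0.21 ± 0.0912 for Setd1a, 0.03 ± 0.0982 for Kmt2a and -0.11 ± 0.124 for Kmt2c, none of which passed (edgeR adjusted p from 0.112 to 0.874). No member passed against Cpeb1-KO cortex when either library of double-KO cortex or of Cpeb1-KO cortex was left out. Calls in double-KO cortex against WT also depended on which library was left out. Over 15 alternative fits the change against WT ran from -0.63 to -0.44 for Kdm6a and from 0.45 to 1.01 for Kdm6b. Against Cpeb1-KO cortex it ran from 0.39 to 0.57 for Setd1b, 0.86 to 1.32 for Arid3a and -0.39 to -0.32 for Smarca5. Among members that did not pass, the demethylase Kdm4d had 4.07 and 3.78 CPM of footprints in WT and 2.49 to 3.68 CPM in the other genotypes, below WT in all 6 libraries. Setd4 had 3.47 and 3.32 CPM in WT and 3.93 to 4.89 CPM elsewhere, above WT in all 6. Over all genes, footprint groups did not overlap with WT in 30.7% (Fmr1-KO), 29.9% (Cpeb1-KO) and 52.4% (double-KO). The share of genes apart from WT in every genotype was not counted.

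**Figure D5:**
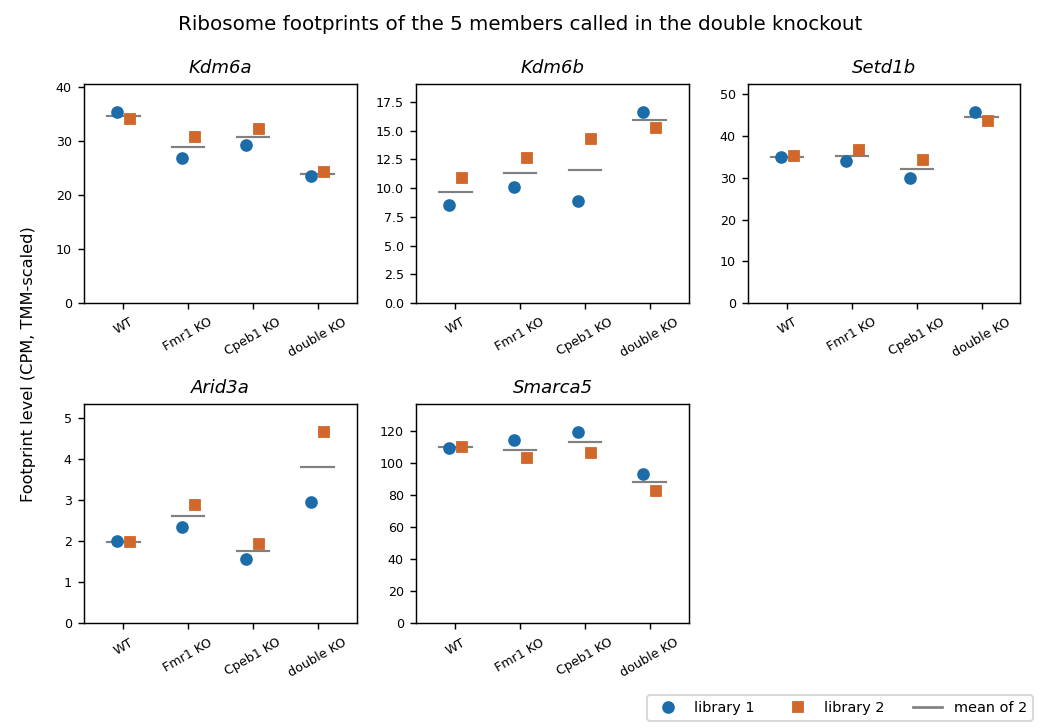
Footprint level (CPM, scaled with TMM factors, axes from 0) of the 5 members that passed in double-KO cortex against WT (Kdm6a, Kdm6b) or against Cpeb1-KO cortex (Setd1b, Arid3a, Smarca5), by genotype, with library 1 as circles, library 2 as squares and the mean as a line. The 2 double-KO libraries are the lowest for Kdm6a and Smarca5 and the highest for Kdm6b, Setd1b and Arid3a.

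Markers of glia moved in the same footprint comparisons. Against WT, footprints of the astrocyte genes Gja1 (-0.33 ± 0.0778) and Slc1a3 (-0.32 ± 0.0763) and the microglial gene P2ry12 (-0.88 ± 0.194) fell in double-KO cortex (edgeR adjusted p from 0.0382 to 0.0476), which is 2 of 6 astrocyte and 1 of 6 microglial markers. Summed microglial markers were 19.1 to 29.5 CPM in double-KO cortex and 29.7 to 40.9 in WT, and summed astrocyte markers 1665 to 1800 and 1848 to 2009. Summed oligodendrocyte markers were 2804 to 3150 and 3382 to 3554, while those of neurons were 8539 to 8747 and 8307 to 8377. Against Cpeb1-KO cortex the same 3 genes fell, by 0.34 (Gja1), 0.31 (Slc1a3) and 1.21 (P2ry12). RNA did not follow: in double-KO cortex against WT its change was above 0 in 5 of 6 astrocyte markers (median 0.26). It was above 0 in 5 of 6 microglial markers (median 0.33) and 2 of 6 oligodendrocyte markers (median -0.071), and none passed. Summed astrocyte markers were 1532 to 1556 CPM of RNA in double-KO cortex and 1287 to 1439 in WT. In the pooled RNA comparison Gja1 rose by 0.38 ± 0.0931 (adjusted p = 0.0264) and no other marker passed. The part of cell composition in the changes of the members was not tested.

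Translational efficiency, taken as the change in footprints beyond that in RNA, had fitted values mostly above 0 for the H3K4 methyltransferases, but no member passed the test. With edgeR the counts were 0 of 67 in Fmr1-KO cortex (beside 0.0154% of 13027 genes), Cpeb1-KO cortex (0%), double-KO cortex (0.00768%) and the pooled comparison (0%), DESeq2 called none, and 6, 8, 1 and 10 members had an unadjusted p under 0.05. These are 8.96%, 11.9%, 1.49% and 14.9% of members, beside 7.8%, 9.5%, 3.52% and 13.4% of all genes. The medians of the 6 H3K4 methyltransferases were 0.53, 0.70, 0.20 and 0.51. In the pooled comparison Setd1a had 0.49 ± 0.15 (edgeR adjusted p = 0.189), Kmt2b 0.58 ± 0.191 (adjusted p = 0.203), Kmt2d 0.54 ± 0.184 (adjusted p = 0.217) and Setd1b 0.57 ± 0.208 (adjusted p = 0.246). Smarcd1 had 0.43 ± 0.139 and Smarca1 -0.30 ± 0.104. These values use the RNA libraries in which the same genes were low or high, and so are not separate from the RNA changes. As levels, the footprint-to-RNA ratio of Kmt2d was 0.135 and 0.155 in WT, 0.25 and 0.185 in Fmr1-KO cortex, 0.317 and 0.194 in Cpeb1-KO cortex and 0.139 and 0.183 in double-KO cortex, so that the groups lay close in libraries 2.

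The authors' own tables were read for the same members. In the authors' deposited table of the pooled RNA comparison 9 of the 60 members with an adjusted p were called (15%, beside 13.6% of all genes), the 8 above and Smarcc2 (-0.19, adjusted p = 0.0484), with smaller log2 changes such as -0.56 for Setd1b and -0.52 for Kmt2d. In the authors' deposited table of RNA in Cpeb1-KO cortex 3 members were called as lower, Setd1b (-0.53, adjusted p = 0.00399), Setd1a (-0.43, adjusted p = 0.0196) and Kmt2a (-0.38, adjusted p = 0.0472), which is 5.08% beside 1.62% of all genes. The authors' deposited table of translational efficiency, made with Xtail, called 7 members in Fmr1-KO cortex (10.3%, beside 2.96% of all genes) and 8 in Cpeb1-KO cortex (11.8%, beside 2.47%), and 0 in double-KO cortex (beside 0.152%). In both single knockouts the authors' deposited table has Setd1b (0.56 and 0.69), Kmt2d (0.48 and 0.59), Setd1a (0.45 and 0.59), Kmt2b (0.52 and 0.57) and Smarcd1 (0.36 and 0.38) as higher. It also has Arid1a as higher and Smarca1 as lower in Fmr1-KO cortex, and Kmt2a (0.64), Kdm6b (0.69) and Arid1b (0.38) as higher in Cpeb1-KO cortex. The authors' deposited table of footprints called 3 members in double-KO cortex against WT (5.26%, beside 8.26%), Kdm6a, Kdm6b and Smarca5, and 8 against Cpeb1-KO cortex (14%, beside 13.5%). The edgeR and DESeq2 tests of the interaction of assay and genotype made here called none of the members that Xtail called.

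Genes that work with the members but lie outside the symbol rule were examined in 4 lists. Of 27 other histone methyltransferases, demethylases and COMPASS partners, 4 fell in the pooled RNA comparison and 0 rose: the H3K79 methyltransferase Dot1l (-0.56 ± 0.156), the H3K9 demethylase Phf2 (-0.50 ± 0.126), the COMPASS subunit Ncoa6 (-0.42 ± 0.11) and Hcfc1 (-0.37 ± 0.102). Of 19 BAF and PBAF partners 3 fell and 0 rose: Gltscr1, now called Bicra (-0.86 ± 0.152), and the neuronal transcription factors Bcl11b (-0.45 ± 0.0867) and Bcl11a (-0.34 ± 0.0921). Of 21 NuRD, ISWI and INO80 partners 2 rose and 0 fell: Baz1a, a partner of Smarca5 (0.83 ± 0.162), and the deacetylase Hdac2 (0.29 ± 0.0832). Of 31 regulators of DNA methylation and histone acetylation 5 fell, among them the deacetylases Hdac7 (-1.14 ± 0.234) and Hdac4 (-0.35 ± 0.098), and Kat8, an acetyltransferase, rose (0.33 ± 0.0913). The edgeR adjusted p-values of the genes named ran from 0.00872 to 0.0444. Over all genes tested 5.09% fell and 2.22% rose in this comparison, and no difference between a list and all genes was tested. The list medians were -0.068, -0.0034, -0.021 and -0.16, beside 0.026 for all genes.

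In footprints of double-KO cortex Hdac2 fell against WT (-0.36 ± 0.0765) and against Cpeb1-KO cortex (-0.31 ± 0.0764), and the DNA methyltransferase Dnmt3a rose against both (0.50 ± 0.111 and 0.43 ± 0.111). Dpf2, a BAF subunit, rose against WT (0.36 ± 0.0872), and Ehmt2, an H3K9 methyltransferase, and the deacetylase Hdac5 rose against Cpeb1-KO cortex (0.34 ± 0.0752 and 0.34 ± 0.0869). The edgeR adjusted p-values of these calls ran from 0.0256 to 0.0487. No gene of the 4 lists passed in RNA of a single genotype against WT, in footprints of either single knockout or in translational efficiency.

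Members on the sex chromosomes bear on whether the libraries are alike in the animals' sex. Kdm5d, an H3K4 demethylase on the Y chromosome, was present in all 8 RNA libraries, at 54.4 to 86.6 CPM, and in all 8 footprint libraries, at 21.3 to 24.5 CPM. Its X-linked paralog Kdm5c had RNA means of 149 CPM in WT, 159 in Fmr1-KO cortex, 145 in Cpeb1-KO cortex and 170 in double-KO cortex. Neither passed in the 13 comparisons as fitted. Kdm5d RNA rose in the pooled comparison after length correction, as given above. Kdm5c footprints of double-KO cortex were higher against Cpeb1-KO cortex in the authors' deposited table (0.25, adjusted p = 0.0307). They also passed there with length correction (0.33 ± 0.0908, edgeR adjusted p = 0.0499) and in the fit of the 2 genotypes only (0.29 ± 0.0882, edgeR adjusted p = 0.0346). Reads shared between Kdm5c and Kdm5d, Kdm6a and its Y-linked copy Uty, or other close paralogs could be split between them by the authors' estimate of counts.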

How the data were processed

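The authors deposited a gene table per library with expected counts (estimated reads per gene, not whole) and TPM, made with RSEM, per the file headers. Reads had been handled with cutadapt, Bowtie2, TopHat2 and RSEM on mm10, per the submitters' processing notes, and RNA fragments of 50 to 60 nt were taken, per the labels' protocols. Of 15716 genes with a single transcript 99.6% have a feature length that is a multiple of 3, so counts cover coding sequence. The authors' deposited tables of comparisons hold log2 changes and p-values (adjusted) from DESeq2 and Xtail. The sign of the authors' RNA tables was turned so that a knockout is set against WT.

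Expected counts were rounded and tested with edgeR 4.0.16 (R 4.3.3): TMM, filterByExpr (minimum count 10), quasi-likelihood test, library number as a block, Benjamini-Hochberg adjustment over all genes, threshold 0.05. No label says that a library number marks a shared batch, and results without the block stand in the closing section. Pairs of genotypes came from fits of all 8 libraries of an assay, translational efficiency from the interaction of assay and genotype, and the pooled comparison from a fit of 2 groups of 4. Changes per library number are differences of log2 CPM with a prior count of 2. Levels are TPM or TMM-scaled CPM, as mean ± SD. The tests were tested on simulated data with the same spread for every gene and no effect of library number or length. That simulation cannot speak to spread that differs between genes or to effects of library number or length. DESeq2 1.42.0 was an alternative. Members, roles and lists were chosen with earlier results of these data known. The naming rule gives values per library for members that passed in a comparison, and otherwise names members with the largest changes in a comparison, with the highest or lowest WT level of a symbol family, or on a sex chromosome; any member may be named as an example of its role. Arid5a, Kdm4d and Setd4 stand for the largest changes that did not pass, and were chosen after their values were seen. Counting was not stated to use strand, so overlapping antisense genes cannot be told apart. Some genes of the partner and marker lists are not reported here.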

Additional observations from a re-analysis of the deposited data

Results flagged for a closer look

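The change of Setd1a RNA with loss of Fmr1 differed between the presence and absence of Cpeb1 by 1.17 on the log2 scale, and that of Setd1b by 1.63, each by the interaction test in the fit of the 4 genotypes given above. Of all genes 2.06% passed that test. RNA of Smarca1 was 116 CPM in library 2 of the double knockout, apart from the other WT and double-knockout libraries, which lay between 134 and 136 CPM. The gap was above Dixon's 95% limit for 4 libraries. In all 16 groups of 4 were examined (the 8 members that passed in RNA, in each of the pooled groups), and chance flags about 1 in 20.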

How the results depend on the processing

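Setd1b kept its call in pooled RNA under 15 of 15 alternatives, Setd1a under 14, Kmt2d under 13, Kmt2b under 12, Arid1a and Arid1b under 9, and Smarca1 and Smarcd1 under 8. In double-knockout footprints Kdm6a kept its call under 12, Setd1b under 11, Smarca5 under 10, Arid3a under 9 and Kdm6b under 7. No called member changed direction. Library numbers did not clearly pair the samples: deviations of same-numbered libraries correlated at -0.0446 to 0.293 in RNA and -0.0748 to 0.334 in footprints, over 0.1 in 3 of 6 pairs of genotypes each. With no replicate block members called went from 8 to 4 in pooled RNA (Setd1b, Kmt2d, Setd1a and Kmt2b), from 2 to 1 in footprints of the double knockout against WT and from 3 to 1 against Cpeb1-KO cortex. With 4 genotypes in the fit the pooled RNA count was 2, and with length correction 14. Fits of the 2 genotypes alone gave 6 members in RNA of the Fmr1 knockout (401 of all genes), 1 in that of the Cpeb1 knockout (71 of all genes), 0 in footprints of the double knockout against WT and 9 against the Cpeb1 knockout. Over all genes the pooled RNA calls were 971, with 380 without the block, 1471 with length correction and 274 in the fit of 4 genotypes. Without a filter on low counts the double-knockout footprint counts were 4 and 5, and with length correction the latter was 7. For the footprint counts of these alternative fits the share of all genes is not given here. They describe the stability of the calls only. Calls in comparisons of 2 genotypes also changed when a library was left out. Leaving out each library in turn gave 1 to 12 members in pooled RNA and 0 to 1 in pooled translational efficiency, without the share of all genes beside them. It moved the members' median log2 change between -0.16 and 0.15 in RNA of the double knockout, -0.05 and 0.02 in footprints of the Fmr1 knockout, -0.052 and 0.0076 in those of the Cpeb1 knockout, -0.07 and -0.022 in pooled footprints, and -0.075 and 0.13 in translational efficiency of the double knockout. The median in translational efficiency of double knockouts was 0.027, with 0.019 without a filter and 0.039 with length correction. Apart from the construction of these fits, the cause was not tested. With 2 libraries a group, the median SE of a member against WT was 0.145 in RNA and 0.0949 in footprints of the Fmr1 knockout. Smaller changes could not be told from the spread, and changes several times as large did not pass either. An example is the change of -0.93 in Setd1b RNA of the Cpeb1 knockout (edgeR adjusted p = 0.265).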
